A study of Homo sapiens with 8 samples.

Results

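Alu and SVA subfamilies are the short, non-autonomous retroelements of the human genome, and their reads were compared here between parental and decitabine (DAC)-resistant THP-1 cells. THP-1 cells are an established monocyte-like leukemia line. DAC, a nucleoside drug related to cytidine, traps the DNA methyltransferases once built into DNA, so that methylation is lost as cells divide. Members were the repeat families of the deposited expression table, which are the rows with no Ensembl identifier, whose name starts with Alu, SVA, FLAM or FRAM or equals FAM. The rule found 60 of 1264 repeat families. They comprised 4 AluJ, 17 AluS, 28 AluY and 6 SVA (SVA_A to SVA_F) subfamilies, 4 Alu monomers (FLAM_A, FLAM_C, FRAM and FAM) and 1 family named only Alu. No measured value entered the rule.

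The 4 groups were parental THP-1 cells with DMSO, parental cells with 1 µM DAC, DAC-resistant THP-1 cells with DMSO and DAC-resistant cells with 1 µM DAC. Each treatment lasted 6 days, and each group had 2 libraries labelled as biological replicates, 8 libraries in all. All groups carried the label WT for genotype. The resistant cells had been selected by repeated DAC exposure and then kept without drug before use, so they are 1 selected population of 1 line and not independent lines. DMSO is the drug's solvent and served as the control. Messenger RNA was sequenced, and a level is given as FPKM (fragments per kilobase of all the family's copies together, scaled by the library's total of repeat reads). An Alu or SVA level is thus a share of the repeat reads and sums all copies of a subfamily, so it has no single genome position. In bulk RNA, a change in the RNA of each cell and a change in the mix of cells cannot be told apart. The myeloid marker SPI1 lay at 101.9 and 102.1 FPKM in parental DMSO cells, against 72.4 and 67.4 FPKM in resistant DMSO cells. CD33, another myeloid marker, lay at 9.92 and 9.74 FPKM against 4.20 and 4.40 FPKM in the same groups. CD14 was lower, at 1.45 and 1.58 FPKM in parental DMSO cells and 0.75 and 0.99 FPKM in resistant DMSO cells, and it rose to 19.0 and 20.8 FPKM with DAC in parental cells. LYZ, the lysozyme gene, also rose with DAC in parental cells, from 11.4 and 12.6 to 46.7 and 48.9 FPKM. In resistant DMSO cells LYZ lay at 3.69 and 4.88 FPKM. With DAC in parental cells SPI1 rose to 128.9 and 125.1 FPKM, while CD33 fell to 8.10 and 7.61 FPKM (log2 fold change -0.29 ± 0.05, adjusted p = 0.00355, limma). The part of these shifts in the Alu and SVA levels was not tested.

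Alu elements arose from 7SL RNA, the RNA of the signal recognition particle, which guides nascent secreted and membrane proteins to the endoplasmic reticulum. The free monomers FAM, FLAM and FRAM are the oldest forms, AluJ is the oldest dimeric lineage, AluS followed, and AluY is the youngest and includes the copies that still move. SVA elements are hominoid composites that carry an Alu-like part, a GC-rich tandem repeat and a stretch of retroviral origin. SVA_A is the oldest of them, and SVA_E and SVA_F are found only in humans. Alu and SVA copies depend on LINE-1 proteins to move, are rich in CpG sites that are usually methylated in somatic cells, and can form double-stranded RNA where inverted copies meet in 1 transcript. Alu copies are transcribed by RNA polymerase III or, more often, as passengers inside genes.

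The libraries held 3112608 to 3725841 reads on repeat families, which was 102.7 to 117.5 per 1000 reads of the totals used to scale the genes. Alu families and monomers took 28.4% to 30.4% of the repeat reads and SVA families took 0.383% to 0.691%. In the 4 resistant libraries, repeat reads were 102.7 to 103.5 per 1000, below the 114.5 to 117.5 of the 4 parental libraries. Of the 60 members, 57 passed the filter on low values and 3 AluY subfamilies (AluYb8a1, AluYb10 and AluYb11) were listed at 0 in all 8 libraries. Over the 57, a library gave 2 to 135939 reads on a member, and 50 members had at least 100 reads in every library. The other 7 were all AluY subfamilies, so their values carry the largest counting error.

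When parental cells were treated with DAC, 5 of 6 SVA subfamilies and 4 of 25 AluY subfamilies rose, the sum over SVA rose more than that over AluY, no AluS subfamily passed the test, and AluJb fell, where 12.6% of the 1165 families tested rose and 11.0% fell. The 4 AluY calls were lost when any 1 parental library was left out. Summed over the 6 SVA subfamilies, the level per length was 0.842 and 0.864 FPKM in the DMSO libraries and 1.52 and 1.51 FPKM in the DAC libraries. The AluY sum was 0.555 and 0.561 FPKM with DMSO and 0.631 and 0.630 FPKM with DAC. The AluS sum was 0.839 and 0.851 FPKM with DMSO and 0.850 and 0.858 FPKM with DAC, so the groups overlapped. The AluJ sum was 1.05 and 1.06 FPKM with DMSO and 0.956 and 0.967 FPKM with DAC, which put both treated libraries below both controls. On the log2 scale the class sums differed by 0.83 for SVA, 0.18 for AluY, 0.02 for AluS and -0.14 for AluJ.

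The 6 SVA subfamilies did not change alike, and the estimates were larger in the younger ones. SVA_F lay at 0.568 and 0.661 FPKM with DMSO and at 1.70 and 1.78 FPKM with DAC, a log2 fold change of 1.501 ± 0.08 (SE, adjusted p = 0.000251, limma with Benjamini-Hochberg adjustment over 1165 families). SVA_E, the least expressed of them, went from 0.289 and 0.234 FPKM to 0.600 and 0.733 FPKM, a log2 fold change of 1.35 ± 0.16 (adjusted p = 0.00491, limma). SVA_D, with the most reads of the 6, rose from 0.757 and 0.770 FPKM to 1.59 and 1.57 FPKM (log2 fold change 1.05 ± 0.03, adjusted p = 3.13e-05, limma). In all 3 the treated libraries lay above every other library of the study. SVA_C rose from 0.799 and 0.837 FPKM to 1.29 and 1.33 FPKM (log2 fold change 0.68 ± 0.06, adjusted p = 0.00156, limma). SVA_A, at 0.966 and 0.943 FPKM with DMSO and 1.23 and 1.15 FPKM with DAC, passed the test with a log2 fold change of 0.32 ± 0.08 (adjusted p = 0.0387, limma). SVA_B was the most expressed in parental DMSO cells, at 1.74 and 1.75 FPKM, and lay at 1.94 and 1.79 FPKM with DAC, a log2 fold change of 0.10 ± 0.05 that did not pass (adjusted p = 0.228, limma). The order of the estimates followed the names except that SVA_B lay below SVA_A. Neighbouring estimates of SVA_E and SVA_F differed by less than the sum of their standard errors, while those of SVA_C and SVA_D did not overlap in this way.

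**Figure D1:**
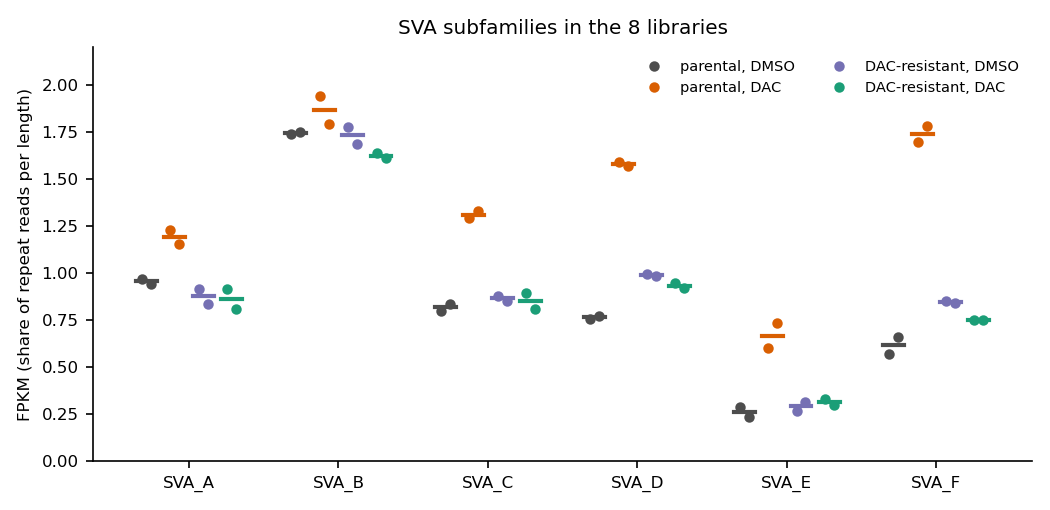
Level of each SVA subfamily in FPKM (linear axis from 0) in the 8 libraries, with 2 points per group and a bar at their mean. In each subfamily both DAC-treated parental libraries lie above the other 6 libraries, by the least in SVA_B (1.79 against 1.78 FPKM), and in SVA_F they reach 1.70 and 1.78 FPKM against 0.568 to 0.853 FPKM elsewhere.

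Among the 25 AluY subfamilies tested, 4 rose with DAC in parental cells and none fell at an adjusted p under 0.05, a share near that of all families. AluY itself, the parent of the lineage and its main source of reads, went from 0.584 and 0.592 FPKM to 0.668 and 0.668 FPKM (log2 fold change 0.18 ± 0.03, adjusted p = 0.0183, limma). AluYa5, 1 of the lineages known to be mobile in people today, went from 0.210 and 0.226 FPKM to 0.343 and 0.366 FPKM (log2 fold change 0.70 ± 0.13, adjusted p = 0.0183, limma). AluYk3 (log2 fold change 0.40 ± 0.10, adjusted p = 0.0387, limma) and AluYd8 (1.47 ± 0.38, adjusted p = 0.0452, limma) were the other two, and AluYd8 rested on 33 and 29 reads with DMSO and 81 and 69 reads with DAC. AluYb8, another mobile lineage, lay at 0.294 and 0.277 FPKM with DMSO and 0.296 and 0.323 FPKM with DAC and did not pass (adjusted p = 0.371, limma). The 2 ends of the AluY range did not pass either. AluYh7 had the highest estimate, 2.33 ± 0.92, on 15 and 2 reads with DMSO and 30 and 20 reads with DAC (adjusted p = 0.134, limma). AluYa8 had the lowest, -0.31 ± 0.15, from 1.95 and 1.56 FPKM with DMSO and 1.45 and 1.35 FPKM with DAC (adjusted p = 0.193, limma). Over the 18 AluY subfamilies with at least 100 reads in every library, the median log2 fold change was 0.14, against 0.31 over all 25.

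None of the 17 AluS subfamilies passed the test in this comparison (limma, 0 at an unadjusted p under 0.05, and their estimates ran from -0.09 in AluSg7 to 0.16 in AluSq4). AluSg7 lay at 0.938 and 0.905 FPKM with DMSO and 0.849 and 0.881 FPKM with DAC, and AluSq4 at 0.780 and 0.717 FPKM with DMSO and 0.844 and 0.825 FPKM with DAC. All 4 AluJ estimates were below 0, from -0.20 in AluJb to -0.04 in AluJr4. AluJb, the subfamily with the most reads of all members, went from 1.10 and 1.11 FPKM to 0.958 and 0.968 FPKM (log2 fold change -0.20 ± 0.03, adjusted p = 0.00782, limma). AluJr4, at 0.902 and 0.928 FPKM with DMSO and 0.877 and 0.898 FPKM with DAC, did not pass (adjusted p = 0.370, limma).

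The 4 monomers went in different directions in this comparison. FAM, the fossil Alu monomer, lay at 2.04 and 2.05 FPKM with DMSO and at 5.03 and 4.84 FPKM with DAC (log2 fold change 1.27 ± 0.03, adjusted p = 3.13e-05, limma). That placed it beside SVA_D to SVA_F, and its treated libraries were far above the other 6, which spanned 2.04 to 2.57 FPKM. FLAM_C, a free left monomer, fell from 1.71 and 1.72 FPKM to 1.51 and 1.49 FPKM (log2 fold change -0.19 ± 0.02, adjusted p = 0.00663, limma). FLAM_A, the related left monomer, lay at 1.62 and 1.66 FPKM with DMSO and 1.58 and 1.57 FPKM with DAC and did not pass (log2 fold change -0.06 ± 0.03, adjusted p = 0.167, limma). FRAM, the free right monomer, lay at 1.12 and 1.11 FPKM with DMSO and 1.11 and 1.13 FPKM with DAC (log2 fold change 0.01 ± 0.03, adjusted p = 0.818, limma). The family named only Alu, whose copies carry no subfamily, lay at 1.34 and 1.28 FPKM with DMSO and 1.25 and 1.24 FPKM with DAC (log2 fold change -0.07 ± 0.05, adjusted p = 0.368, limma), and it passed in no other comparison.

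In all, 10 of 57 members rose and 2 fell with DAC in parental cells at an adjusted p under 0.05, where 12.6% of the 1165 families tested rose and 11.0% fell. At the thresholds used for the study's volcano plots (p of at most 0.01 before adjustment, with a log2 fold change of 1 or more in either direction), 4 members passed, SVA_D, SVA_E, SVA_F and FAM, where 4.21% of all families passed. Relative to the median of all families, the median log2 fold change was 0.88 for SVA, 0.33 for AluY, 0.05 for AluS and -0.07 for AluJ. For comparison, the 16 LINE-1 families named L1HS or L1PA with a number had a median of 0.07 above that of all families, with 4 raised and 1 lowered. The log2 fold changes of these LINE-1 families ran from -0.45 in L1PA12 to 0.92 in L1HS. The 5 MIR families, older elements of another origin, had a median of -0.01 relative to all families. AluY, AluYa5, AluYd8, AluYk3 and SVA_A lost the call when any 1 of the 4 parental libraries was left out, while SVA_C to SVA_F, FAM, FLAM_C and AluJb kept it. Rescaled to a fixed sum per library, which moved the median of all families to -0.42, 5 members were higher and 34 lower. On that scale none of the AluY subfamilies was higher and 9 were lower, with all 4 rises lost and a class median of -0.096. There, 16 of 17 AluS and all 4 AluJ subfamilies were lower, and SVA_A and SVA_B had estimates of -0.09 and -0.31. With families scaled by gene reads, 3 of 4 AluJ subfamilies were lower.

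**Figure D2:**
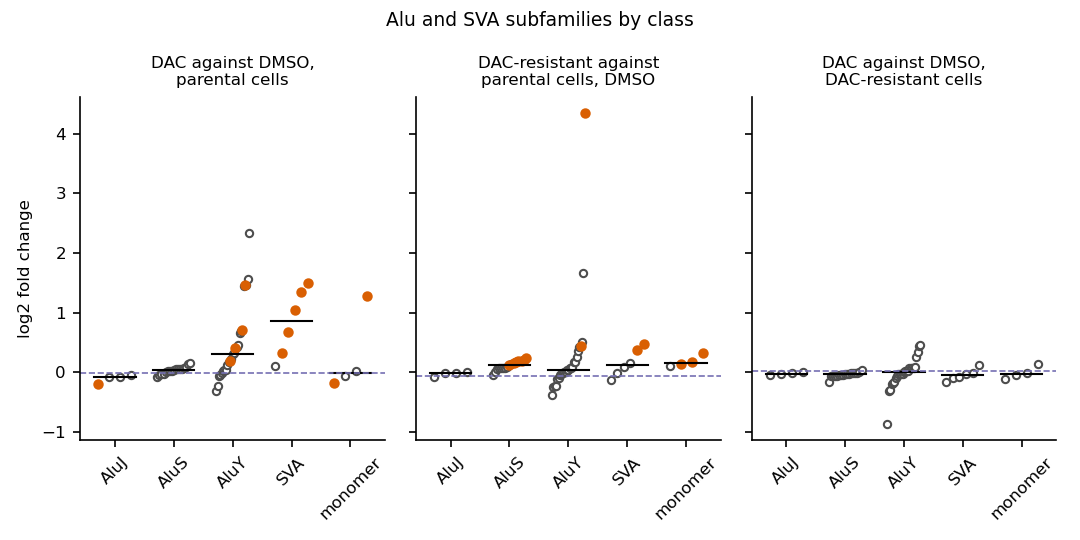
Log2 fold change of each tested member by class in 3 comparisons (linear axis, shared; the family named only Alu is not drawn), with filled points for an adjusted p under 0.05 (limma), a bar at the class median and a dashed line at the median of all 1165 families. With DAC in parental cells the SVA median is 0.86 and the AluS median 0.03, and in DAC-resistant cells treated with DAC no member is filled. Scaled by gene reads, the AluS, AluY and SVA medians of the middle panel turn negative, as the AluJ median is on either scale.

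DAC-resistant cells with DMSO were compared with parental cells with DMSO to ask what remained after selection and without drug. As a share of the repeat reads, 7 of 17 AluS subfamilies, 3 of 4 monomers (FAM, FLAM_A and FLAM_C), SVA_D and SVA_F were slightly higher in the resistant cells. Of the 1165 families tested, 11.9% were higher and 17.6% lower. Scaled by gene reads, the estimates of FLAM_A and FLAM_C and the AluS median turned negative, with 5 of 17 AluS estimates above 0. The AluS sum lay at 0.919 and 0.905 FPKM in resistant cells, against 0.839 and 0.851 FPKM in parental cells. The SVA sum lay at 1.00 and 0.975 FPKM, above both parental DMSO libraries and below both DAC-treated parental ones. The AluY sum lay at 0.592 and 0.580 FPKM, and the AluJ sum, at 1.05 and 1.05 FPKM, was not apart from the parental DMSO libraries.

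Of the 6 SVA subfamilies, 2 passed the test in the resistant cells and both were higher. Of all families tested, 11.9% were higher and 17.6% lower. With values scaled by gene reads, 2 of the 6 SVA subfamilies were called higher and 2 lower. SVA_D lay at 0.992 and 0.985 FPKM (log2 fold change 0.37 ± 0.03, adjusted p = 0.00131, limma), which was 62.6% of its mean in DAC-treated parental cells. SVA_F lay at 0.853 and 0.837 FPKM (log2 fold change 0.46 ± 0.08, adjusted p = 0.0123, limma), or 48.7% of its mean in DAC-treated parental cells. SVA_F lost the call without either of the 2 resistant DMSO libraries. SVA_E, at 0.266 and 0.315 FPKM, overlapped the parental DMSO libraries (log2 fold change 0.16 ± 0.16, adjusted p = 0.515, limma). SVA_C lay at 0.880 and 0.848 FPKM (0.08 ± 0.06, adjusted p = 0.366, limma), SVA_B at 1.78 and 1.68 FPKM (-0.01 ± 0.05, adjusted p = 0.894, limma) and SVA_A at 0.915 and 0.835 FPKM (-0.13 ± 0.08, adjusted p = 0.281, limma). Of the 4 SVA subfamilies raised with the largest estimates by DAC in parental cells, SVA_E and SVA_C thus did not pass here, though the parental DMSO libraries are shared by these comparisons and the difference between subfamilies was not tested.

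Among AluS subfamilies 7 of 17 were higher and none lower, where 11.9% of all families tested were higher and 17.6% lower. All 7 calls were lost when scaled by gene reads, and then none of the 17 was higher and 7 were lower. AluSc, AluSg, AluSg4, AluSq2 and AluSz also lost the call when any 1 of the 4 libraries compared was left out. The largest estimate was that of AluSx3 at 1.15 and 1.13 FPKM against 0.961 and 0.966 FPKM (log2 fold change 0.24 ± 0.03, adjusted p = 0.00487, limma). AluSq4 had the lowest AluS estimate, -0.05 ± 0.07, at 0.75 and 0.69 FPKM (adjusted p = 0.600, limma). None of the 4 AluJ subfamilies passed (limma, 1 at an unadjusted p under 0.05), with estimates from -0.09 in AluJr4 to 0.01 in AluJb. All 4 were called lower when scaled by gene reads (median -0.19) or to a fixed sum (median -0.13). Among monomers FAM lay at 2.56 and 2.57 FPKM (log2 fold change 0.33 ± 0.03, adjusted p = 0.00229, limma), FLAM_C at 1.92 and 1.91 FPKM (0.16 ± 0.02, adjusted p = 0.00986, limma) and FLAM_A at 1.81 and 1.78 FPKM (0.13 ± 0.03, adjusted p = 0.0217, limma). FLAM_A lost its call when any 1 of the 4 libraries compared was left out, and FLAM_C lost its call without parental DMSO replicate 1. FRAM, at 1.203 and 1.18 FPKM, did not pass (0.10 ± 0.03, adjusted p = 0.0619, limma). FLAM_C was thus higher than the parental DMSO level here and lower with DAC in parental cells. Scaled by gene reads, its estimate in the resistant cells was -0.02.

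Of the AluY subfamilies 2 of 25 were higher and none lower in the resistant cells, no larger a share than the 11.9% of all families, and scaled by gene reads 1 was higher and 4 were lower, with AluYc3 losing the call. AluYc3 lay at 1.49 and 1.63 FPKM against 1.19 and 1.10 FPKM (log2 fold change 0.44 ± 0.08, adjusted p = 0.0160, limma). It also lost the call without replicate 2 of either DMSO group. AluYh9, the shortest member with 12833 bases over all its copies, lay at 0.167 and 0.111 FPKM in parental DMSO cells and at 2.61 and 3.004 FPKM in resistant DMSO cells. These levels rested on 8 and 5 reads in parental cells and 109 and 120 reads in resistant cells (log2 fold change 4.35 ± 0.53, adjusted p = 0.00484, limma). AluYh9 had 26 and 9 reads in parental cells with DAC and 76 and 52 in resistant cells with DAC, so all 4 resistant libraries lay above all 4 parental ones. AluYe6 had the lowest AluY estimate, -0.39 ± 0.28, on 29 and 45 reads in resistant and 53 and 55 in parental cells (adjusted p = 0.349, limma).

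In all, 14 of 57 members were higher and none lower in resistant cells, where 11.9% of all families tested were higher and 17.6% lower. At the volcano thresholds 1 member passed, AluYh9, where 4.64% of all families passed. Relative to the median of all families, the class medians were 0.19 for SVA, 0.18 for AluS, 0.10 for AluY and 0.05 for AluJ. The L1HS and L1PA families had a median of -0.19 on this measure, with none raised and 8 lowered. Their log2 fold changes ran from -0.63 in L1PA14 to 0.38 in L1HS. Scaled by gene reads, which moved the median of all families to -0.25, 4 members were higher (SVA_D, SVA_F, FAM and AluYh9) and 18 lower. Between 6 and 8 members were called when 1 of the 4 libraries compared was left out.

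When resistant cells were treated with DAC, no member passed the test in either direction (limma, 6 of 57 at an unadjusted p under 0.05), where 0.0% of all families were higher and 0.0% lower. No member passed the volcano thresholds either, where 0.515% of all families did. SVA_F lay at 0.853 and 0.837 FPKM with DMSO and at 0.7504 and 0.7499 FPKM with DAC (log2 fold change -0.17 ± 0.08, adjusted p = 0.521, limma). SVA_D lay at 0.992 and 0.985 FPKM with DMSO and 0.946 and 0.919 FPKM with DAC (-0.08 ± 0.03, adjusted p = 0.485, limma). For SVA_D and SVA_F the treated resistant libraries were thus the lower ones, where the treated parental libraries were the higher ones. SVA_B had the same order, at 1.78 and 1.68 FPKM with DMSO and 1.64 and 1.61 FPKM with DAC in resistant cells (-0.09 ± 0.05, adjusted p = 0.562, limma). The estimates of SVA_E (0.11 ± 0.16), SVA_C (-0.02 ± 0.06) and SVA_A (-0.02 ± 0.08) were within their standard error of 0. FAM lay at 2.35 and 2.41 FPKM with DAC, below its 2.56 and 2.57 FPKM with DMSO, without passing (-0.11 ± 0.03, adjusted p = 0.381, limma). FLAM_C, at 2.097 and 2.11 FPKM with DAC against 1.92 and 1.91 FPKM, had an estimate of 0.13 ± 0.02 (adjusted p = 0.209, limma). The lowest and highest estimates over all members were -0.88 in AluYh9 and 0.46 in AluYk2. With voom on the recovered reads, 1 member was higher and 4 were lower.

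The difference between the DAC effects, resistant minus parental, tested the contrast between the 2 cell lines itself. Of 57 members, 7 had a lower DAC effect in resistant cells and 2 a higher one at an adjusted p under 0.05, where 6.87% of all families were lower and 6.44% higher. Scaled to a fixed sum the balance turned, with 5 lower and 27 higher, among them 15 of 17 AluS and all 4 AluJ subfamilies. At the volcano thresholds 4 members passed, where 4.38% of all families did. These 4 were SVA_F (-1.67 ± 0.11 on the log2 scale, adjusted p = 0.000932, limma), FAM (-1.38 ± 0.05, adjusted p = 0.000153, limma), SVA_E (-1.24 ± 0.23, adjusted p = 0.0284, limma) and SVA_D (-1.13 ± 0.04, adjusted p = 0.000153, limma). SVA_C had a difference of -0.70 ± 0.08 (adjusted p = 0.00680, limma), AluYk3 of -0.71 ± 0.14 (adjusted p = 0.0316, limma) and AluY of -0.21 ± 0.05 (adjusted p = 0.0463, limma). The 2 with a higher effect in resistant cells were FLAM_C (0.32 ± 0.04, adjusted p = 0.00514, limma) and AluJb (0.18 ± 0.04, adjusted p = 0.0439, limma), both of which had fallen in parental cells. SVA_A (-0.34 ± 0.11, adjusted p = 0.112, limma) and SVA_B (-0.19 ± 0.07, adjusted p = 0.154, limma) did not pass. AluJb and AluY lost the call when any 1 of the 8 libraries was left out, SVA_E in 7 of these 8 cases and AluYk3 in 7, and SVA_C, SVA_D, SVA_F, FAM and FLAM_C kept it in each case.

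**Figure D3:**
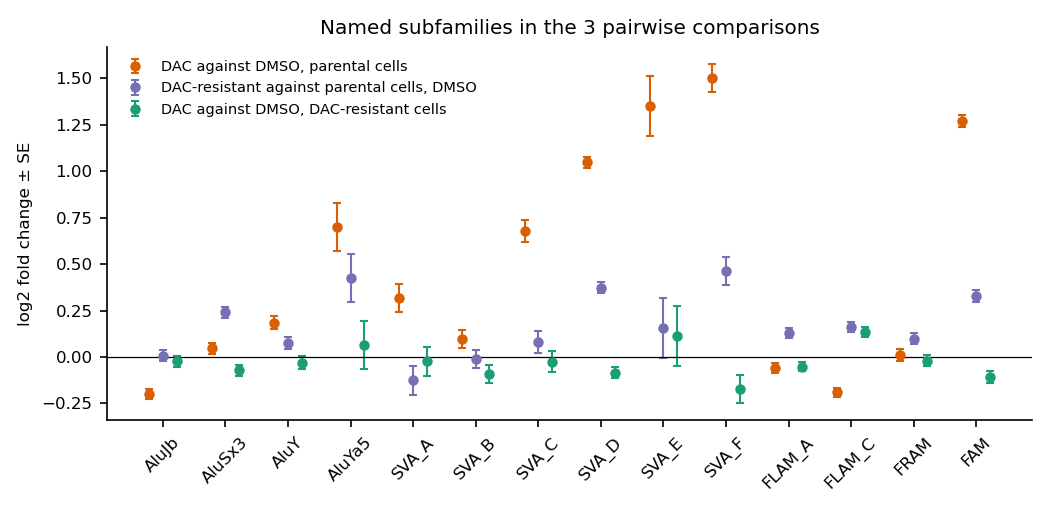
Log2 fold change with its standard error (bars, limma) for 14 subfamilies in 3 comparisons, on a linear axis with a line at 0. With DAC in parental cells the SVA estimates run from 0.10 in SVA_B to 1.501 in SVA_F and FAM lies at 1.27, while in DAC-resistant cells treated with DAC all 14 lie between -0.17 and 0.13. Scaled to a fixed sum, the parental DAC estimates of SVA_A and SVA_B are -0.09 and -0.31, and scaled by gene reads the resistant estimates of FLAM_A and FLAM_C are -0.05 and -0.02.

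The partner RNAs and proteins of Alu RNA were taken from a list of 10 genes, 9 of which passed the gene filter. Gene levels are FPKM scaled by gene reads, so they are not on the scale of the family levels. In parental cells 2 of the 9 rose with DAC at the volcano thresholds and none fell, where 9.31% of 14899 genes passed in either direction. At an adjusted p under 0.05, 2 rose and 3 fell, where 33.6% of all genes rose and 24.1% fell. The 3 that fell were SRP9, SRP68 and SRP72, which encode proteins of the signal recognition particle, with log2 fold changes of -0.20, -0.32 and -0.48. The 2 past the volcano thresholds were RN7SL1 and RN7SL3, both copies of the gene for 7SL RNA. RN7SL1 lay at 14.1 and 12.8 FPKM with DMSO and at 300.2 and 292.3 FPKM with DAC, on 134 and 116 reads against 2468 and 2402 reads (log2 fold change 4.36 ± 0.21, adjusted p = 8.33e-06, limma over 14899 genes). RN7SL3 lay at 0.738 and 0.772 FPKM with DMSO and 31.6 and 29.1 FPKM with DAC, on 7 and 7 reads against 260 and 239 reads (log2 fold change 4.16 ± 0.11, adjusted p = 6.01e-07, limma). That fold change is on the log2(FPKM + 1) scale, which understates the change of a gene below 1 FPKM, and the ratio of the mean levels was 40.2. The copies are nearly identical, so reads could be split between them, and RN7SL2 was listed at 0 in all libraries. In resistant DMSO cells RN7SL1 was lower than in parental cells, at 3.07 and 4.56 FPKM (log2 fold change -1.60 ± 0.21, adjusted p = 0.000759, limma). With DAC it lay at 8.70 and 5.46 FPKM there. At an adjusted p under 0.05, 2 of the 9 rose and 0 fell with DAC in resistant cells, where 5.88% of all genes rose and 5.35% fell. They were SRP72 (0.25 ± 0.05, adjusted p = 0.0191, limma) and RN7SL3 (0.47 ± 0.11, adjusted p = 0.0404, limma). RN7SL3 had 2 and 2 reads with DMSO and 5 and 8 reads with DAC there.

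FAM and RN7SL1 were thus both highest in the DAC-treated parental libraries. FAM held 5067 and 4812 reads with DMSO and 10554 and 10197 with DAC in parental cells. Whether FAM and the 7SL genes share reads was not tested. In resistant DMSO cells they parted, since FAM lay above its parental level and RN7SL1 below. The repeat family 7SK, named after another RNA of RNA polymerase III, lay at 2.32 and 2.13 FPKM with DMSO and 11.5 and 10.4 FPKM with DAC in parental cells, and at 1.74 and 1.74 FPKM in resistant DMSO cells. It was chosen after its values were seen. Both 7SL and 7SK RNA lack a poly(A) tail, and the part of messenger RNA selection in these levels was not tested.

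BCYRN1 did not follow 7SL RNA. It encodes BC200 RNA, a neuronal RNA that grew from an Alu monomer (chr2:47335315-47335514, plus strand, GRCh38), and lies within an intron of the non-coding gene EPCAM-DT on the opposite strand. It lay at 3.47 and 6.10 FPKM in parental cells with DMSO and 5.64 and 6.19 FPKM with DAC (log2 fold change 0.29 ± 0.23, adjusted p = 0.307, limma). In resistant cells it lay at 26.9 and 27.1 FPKM with DMSO and 26.6 and 36.7 FPKM with DAC, on 170, 163, 170 and 225 reads. The resistant DMSO level was 5.65-fold the parental one (log2 fold change 2.31 ± 0.23, adjusted p = 0.000201, limma), and the 2 cell lines did not overlap. Whether counting used the strand is not stated, so reads from EPCAM-DT could not be told apart, nor could reads from RPS29, the gene that overlaps RN7SL1. SRP9 and SRP14, the pair of proteins that bind the Alu fold of 7SL, BC200 and Alu RNA, were abundant in all libraries. SRP9 lay at 180.9 and 179.4 FPKM with DMSO and fell slightly to 155.6 and 158.5 FPKM with DAC in parental cells (log2 fold change -0.20 ± 0.03, adjusted p = 0.00285, limma). SRP14 lay between 58.1 and 64.6 FPKM in all 8 libraries. At the volcano thresholds BCYRN1 was the 1 listed gene higher in resistant cells and RN7SL1 the 1 lower, where 8.73% of all genes passed. At an adjusted p under 0.05, 1 was higher and 2 were lower there, where 31.3% of all genes were higher and 26.2% lower.

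**Figure D4:**
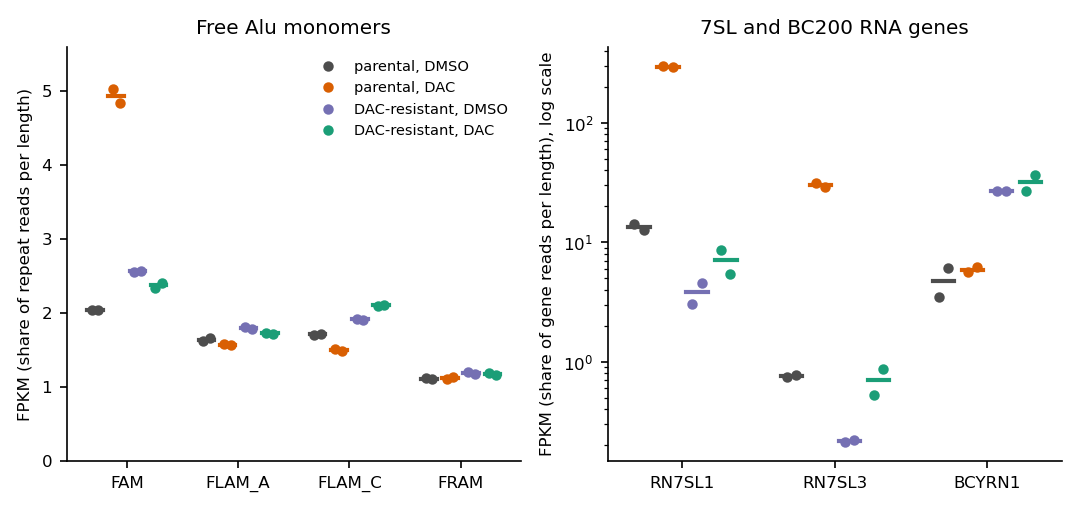
Left, level of the 4 free Alu monomers in FPKM (linear axis from 0). Right, level of RN7SL1, RN7SL3 and BCYRN1 in FPKM on a log axis, with another scaling total, and 2 points per group and a bar at their mean in both panels. FAM, RN7SL1 and RN7SL3 are highest in DAC-treated parental cells, and BCYRN1 is highest in the 4 DAC-resistant libraries, at 26.6 to 36.7 FPKM.

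Proteins that sense, edit or bind Alu double-stranded RNA formed a list of 15 genes, all tested. With DAC in parental cells 6 of them rose at the volcano thresholds and none fell, where 9.31% of all genes passed in either direction. ADAR, the enzyme that edits adenosines in paired Alu RNA, went from 38.3 and 38.5 FPKM to 103.2 and 102.6 FPKM (log2 fold change 1.40 ± 0.02, adjusted p = 1.02e-07, limma). IFIH1, which encodes the long double-stranded RNA sensor MDA5, went from 8.88 and 9.11 FPKM to 42.1 and 40.4 FPKM (log2 fold change 2.08 ± 0.04, adjusted p = 1.25e-07, limma). The other four were EIF2AK2, the kinase PKR that stops translation on double-stranded RNA (log2 fold change 1.68 ± 0.04), and the 2′-5′ oligoadenylate synthetases OAS1 (3.18 ± 0.06), OAS2 (3.51 ± 0.05) and OAS3 (3.95 ± 0.04), which switch on RNase L. In resistant DMSO cells 3 of the 15 were higher and none lower at these thresholds, where 8.73% of all genes passed. The genes past them were ADARB1, another adenosine deaminase, at 5.82 and 5.59 FPKM against 1.82 and 1.72 FPKM (log2 fold change 1.28 ± 0.06), OAS2 (1.35 ± 0.05) and OAS3 (1.14 ± 0.04). ADAR lay at 59.3 and 59.3 FPKM and IFIH1 at 13.5 and 13.5 FPKM in resistant DMSO cells, between the parental DMSO and the parental DAC levels. With DAC in resistant cells none of the 15 passed the volcano thresholds (limma, 9 at an unadjusted p under 0.05), where 0.235% of all genes did. At an adjusted p under 0.05, 2 of the 15 were higher and 6 lower there, where 5.88% of all genes were higher and 5.35% lower. OAS3 (log2 fold change -0.74 ± 0.04, adjusted p = 0.000539, limma) and OAS2 (-0.63 ± 0.05, adjusted p = 0.00153, limma) were among those lower with DAC in resistant cells. By the same rule 11 rose and 2 fell (MAVS and HNRNPC) with DAC in parental cells, where 33.6% of all genes rose and 24.1% fell, and 14 were higher and none lower in resistant DMSO cells, where 31.3% of all genes were higher and 26.2% lower. IFIH1 lay at 11.9 and 11.6 FPKM and OAS3 at 4.26 and 4.36 FPKM with DAC in resistant cells, below their levels with DMSO.

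Of 13 genes that silence SVA and Alu copies, none passed the volcano thresholds in the 3 pairwise comparisons (limma, 8, 8 and 6 at an unadjusted p under 0.05), where 9.31%, 8.73% and 0.235% of all genes passed. At an adjusted p under 0.05, 7 rose and 1 fell with DAC in parental cells, where 33.6% of all genes rose and 24.1% fell. In resistant DMSO cells 3 were higher and 4 lower, where 31.3% of all genes were higher and 26.2% lower, and with DAC in resistant cells none rose and 3 fell, where 5.88% and 5.35% of all genes did. ZNF91, the zinc finger repressor that binds SVA elements, lay at 4.41 and 4.12 FPKM with DMSO and 5.79 and 5.75 FPKM with DAC in parental cells (log2 fold change 0.36 ± 0.07, adjusted p = 0.00474, limma). Its level in resistant DMSO cells, 4.42 and 4.51 FPKM, lay near the parental one (0.05 ± 0.07, adjusted p = 0.552, limma). Of 20 genes of RNA polymerase III and its factors, none passed with DAC in parental cells (limma, 13 at an unadjusted p under 0.05) and 1 was higher in resistant DMSO cells, at the thresholds that 9.31% and 8.73% of all genes passed. At an adjusted p under 0.05, 7 rose and 6 fell with DAC in parental cells, and 10 were higher and 2 lower in resistant DMSO cells, against 33.6% and 24.1%, and 31.3% and 26.2%, of all genes. The gene past the volcano thresholds, GTF3C5, a subunit of the factor TFIIIC that binds the Alu promoter, lay at 38.5 and 35.2 FPKM in resistant and 13.6 and 14.9 FPKM in parental DMSO cells (log2 fold change 1.31 ± 0.07, adjusted p = 1.45e-05, limma). Whether the RNA or the protein of these genes acts on the Alu and SVA levels was not tested.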

How the data were processed

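Reads of the 8 libraries were trimmed by the authors with cutadapt 1.9.1, aligned to hg38 with HISAT2 2.1.0, handled with SAMtools 1.6 and counted with HTSeq 0.13.5 on Ensembl genes and on RepeatMasker families. The authors deposited FPKM values multiplied by 1000, and family values were scaled by the total of the family reads and gene values by a gene total. How reads with several alignments and the strand were treated is not given in the sources used here, so related subfamilies may share reads.

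Family values were analysed as log2(deposited value + 1) for 1165 families with a deposited value of at least 1 in at least 2 of the 8 libraries, and genes as log2(FPKM + 1) with at least 1 FPKM in at least 2 libraries. The model held 1 mean for each of the 4 groups, and limma 3.58.1 (R 4.3.3) moderated the variances with a trend (4 residual and 1.32 prior degrees of freedom for families). Benjamini-Hochberg adjustment ran over all families or all genes. For 2 against 2 libraries, no two-sided exact permutation test can give a p below 0.333, so the p-values rest on the model. Its spread is that of each feature pooled over the 4 groups, moderated by limma with a trend across features. Labels do not say how far replicates were independent cultures. Whole reads were recovered for 1165 of 1172 families above 0 from the ratios between libraries, and 99.6% of the family lengths so found were within 0.01 of a whole number. These reads served as depth and for voom. The fit was tested on simulated data. Gene positions came from the GENCODE annotation (GRCh38). The sequences of the small RNA genes are not reported here.

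The members and gene lists were chosen with earlier results of these data known. Named members are all SVA subfamilies and monomers, the largest rise and fall of each Alu class with DAC in parental cells and in resistant against parental cells, and members past the volcano thresholds. Other members that passed the adjusted test, AluYb8 as a lineage known to be mobile, and the 7SK family were added after their values were seen. SPI1, CD33, LYZ and CD14 were also chosen with results known. Alternatives were pseudocounts, filters, scalings, a replicate block, single libraries left out, unmoderated variances and voom.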

Additional observations from a re-analysis of the deposited data

Results flagged for a closer look

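For 9 members, the interaction term gave a DAC effect that differed between resistant and parental cells at an adjusted p under 0.05. Of all families tested, 6.87% had a lower and 6.44% a higher DAC effect in resistant cells by the same rule. AluJb, AluY, AluYk3 and SVA_E lost the call in most fits with 1 library left out. On the log2 scale, resistant minus parental, the difference was -1.67 for SVA_F, -1.38 for FAM, -1.24 for SVA_E, -1.13 for SVA_D, -0.71 for AluYk3, -0.70 for SVA_C, -0.21 for AluY, 0.18 for AluJb and 0.32 for FLAM_C. Groups of 2 libraries were too small for a check of single outlying libraries.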

How the results depend on the processing

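Counts of members with an adjusted p under 0.05 are given in the order DAC in parental cells (12 as reported), resistant against parental cells (14), DAC in resistant cells (0) and the difference between the DAC effects (9). Rescaling to a fixed sum gave 39 in the first (5 higher, 34 lower) and 32 in the difference (27 higher and 5 lower, against 2 and 7 as reported), which a shift of the median of all families to -0.42 and 0.36 accompanied. Scaling by gene reads gave 22 in the second comparison, 4 higher and 18 lower. Only the libraries compared gave 7 in the second, unmoderated variances gave 1 in the third, and voom on recovered reads gave 25, 23, 5 and 22. Leaving out 1 library at a time gave 7 to 8, 6 to 8 and 5 to 7 in the first, the second and the difference. The cause of these shifts was not tested. Of the gene lists, 1 gene passed the volcano thresholds with DAC in resistant cells when the pseudocount was 0.1, against 0 as reported.

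Class medians are given relative to all families, which takes out a shift common to a library, so scalings by 1 factor per library do not bear on them. With log2(FPKM + 1), which shrinks low values, the medians for AluJ, AluS, AluY and SVA were -0.040, 0.016, 0.097 and 0.38 with DAC in parental cells and 0.012, 0.073, 0.033 and 0.056 in resistant against parental cells. On that scale AluJ and AluS were -0.020 and -0.022 with DAC in resistant cells, and AluS, AluY and SVA were -0.039, -0.10 and -0.37 in the difference between the DAC effects. Quantile normalization gave -0.023, 0.12 and 0.95 for AluJ, AluS and SVA with DAC in parental cells, and -0.058, 0.12 and 0.15 for AluJ, AluS and AluY in resistant cells, where the AluJ median changed sign. It gave 0.00060, -0.15, -0.29 and -0.99 for AluJ, AluS, AluY and SVA in the difference. Without a filter AluJ was -0.088 with DAC in parental cells, AluJ, AluS and AluY were 0.019, 0.15 and 0.071 in resistant cells, and AluJ was 0.053 in the difference. With 1 library left out, AluJ ran from -0.089 to -0.062, AluS from 0.020 to 0.066 and AluY from 0.24 to 0.33 with DAC in parental cells. In resistant cells AluJ ran from 0.030 to 0.078, AluS from 0.15 to 0.22 and AluY from 0.042 to 0.16. AluY ran from -0.077 to 0.012 with DAC in resistant cells, and in the difference AluJ ran from 0.0060 to 0.055, AluS from -0.12 to -0.068 and AluY from -0.37 to -0.19.

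Single members turned direction under scaling. With a fixed sum, the log2 fold changes of AluSq4, AluSx3, FRAM, SVA_A and SVA_B with DAC in parental cells were -0.24, -0.35, -0.39, -0.086 and -0.31, that of AluJb in resistant cells was -0.10, and the differences of AluSx3 and FRAM were 0.23 and 0.32. Scaled by gene reads, AluJb, FLAM_A and FLAM_C in resistant cells were -0.17, -0.050 and -0.015. The replicate number as a block gave 11, 13, 0 and 6 members, and replicate numbers did not pair the samples (correlations of their deviations from -0.13 to 0.19). Members under 100 reads are limited by depth, and 2 libraries per group limit every call.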
